A study of Mus musculus with 12 samples.

Results

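Gjd3, Sema6a, Ceacam1, Rgs8, Six4, Kcnj2 and Bco2 are 7 genes, of 15057 tested, that were selected for a large difference between PUER cells carrying an shRNA against Hnrnpa0 and PUER cells carrying a control vector, measured 24 h after 4-hydroxytamoxifen (4-OHT). They were found by gene name among 41174 probes, and 12 probes carry them. The array lists Gjd3 as Gjc1, with the transcript of Gjd3, and Bco2 as Bcdo2. The measured vector difference chose the members, so it is given below as a description and without a test; the selection set no numeric limit on it.

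PUER is a mouse myeloid line that lacks PU.1 and expresses PU.1 joined to the hormone-binding region of the estrogen receptor; 4-OHT switches the fusion protein on and the cells mature. The 4 groups were Hnrnpa0 shRNA cells after 24 h in 2 nM 4-OHT, control vector cells after 24 h in 2 nM 4-OHT, Hnrnpa0 shRNA cells before 4-OHT, and control vector cells before 4-OHT. Each group had 3 one-colour arrays (A, B and C). All cells shared growth with IL-3, retroviral infection, GFP sorting and expansion, and the labels describe unique clones for each vector. A vehicle is mentioned in the treatment protocol, but no array is labelled as vehicle. The content of the control construct is not given in the sources used here, and effects of 4-OHT itself or of culture time are not separated from activation of the fusion.

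The 12 arrays lay on 3 slides, and the vectors shared no slide within a treatment. Slide 3 held the 3 shRNA arrays after 4-OHT and shRNA array C before it. Slide 2 held shRNA arrays A and B before 4-OHT and control arrays B and C after it. Slide 1 held control array A after 4-OHT and the 3 control arrays before it. Levels are log2 intensity relative to the 75th percentile of the same array, so 0 is the brightness of that percentile; a level of 1 probe cannot be set against that of another. Hnrnpa0, the shRNA target, was lower by 2.10 on this scale (SE 0.18) in shRNA cells than in control cells after 4-OHT. Before 4-OHT it was lower by 1.54. There its levels were 1.93 and 1.57 on shRNA arrays A and B (slide 2) and 1.00 on array C (slide 3). Of the progenitor markers, 5 of 6 were well above background on every array, and the brightest Ptprc probe was so only after 4-OHT. Of the macrophage markers, 3 of 4 were above background on every array and Csf1r only after 4-OHT. Of 10 markers of other cell types 6 were above background on no array, while 3, among them Cd3e and Hba-a1, were above it on all 12. In bulk RNA, fewer cells of a type and less RNA per cell cannot be told apart.

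The 7 genes belong to different pathways. Connexins such as Gjd3 form gap junction channels between touching cells, semaphorins such as Sema6a signal through plexin receptors, and Ceacam1 is an adhesion receptor of leukocytes that can recruit inhibitory phosphatases to its tail. RGS proteins such as Rgs8 speed the shut-off of G protein signals, Six4 is a homeobox transcription factor that works with Eya partners, Kcnj2 is an inward rectifier potassium channel that holds the resting membrane potential, and Bco2 cleaves carotenoids in mitochondria. PU.1, the factor that 4-OHT activates here, binds purine-rich DNA with a core that often reads GAGGAA.

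The probes of Gjd3 and Bco2 are shown because each is the only probe of its gene, and 2 of the 3 Ceacam1 probes because they lie apart along the gene and read similar vector differences after 4-OHT. Positions are given on build mm7, the build of the array's annotation, and all 4 probes lie on the minus strand. The Gjd3 probe is at chr11:99091495-99091554, the Ceacam1 probes A_52_P159232 and A_51_P183446 are at chr7:22300907-22300966 and chr7:22302727-22302786, and the Bco2 probe matches in pieces between 50514910 and 50517446 on chromosome 9. A 60-base probe over 2537 bases of genome crosses an intron. No exon or intron annotation of that build was used here. Nothing is capitalised in these probes.
Gjd3 A_52_P463340: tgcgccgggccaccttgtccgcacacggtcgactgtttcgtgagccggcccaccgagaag
Ceacam1 A_52_P159232: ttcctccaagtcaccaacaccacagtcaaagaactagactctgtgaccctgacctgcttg
Ceacam1 A_51_P183446: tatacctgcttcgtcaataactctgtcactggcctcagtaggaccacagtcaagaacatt
Bco2 A_52_P452599: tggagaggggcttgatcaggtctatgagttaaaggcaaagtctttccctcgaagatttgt

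The Gjd3 probe stands apart in composition, with a GC content of 68.3%; only 0.478% of the tested probes reached that value. The other members' tested probes had a GC content of 35% to 55%. The probes of Rgs8 (chr1:153658547-153658606, plus strand), Six4 (chr12:71051166-71051225, minus strand) and Kcnj2 (chr11:111183930-111183989, plus strand) each have 1 listed transcript, as do those of Gjd3 and Bco2.

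The promoters of Bco2 and Rgs8 are shown because Bco2 was well above background only after 4-OHT and Rgs8 fell most of the other 6 genes. Each window is the 250 bases before a RefSeq transcript start on GRCm38.p6, with GAGGAA or its reverse complement TTCCTC in capitals. Of the listed windows, 1 of 2 for Bco2 and 2 of 3 for Rgs8 held the motif, and 1 with the motif is shown for each. The Bco2 window shown is chr9:50553663-50553912 on the minus strand, and the Rgs8 window shown is chr1:153665024-153665273 on the plus strand.
Bco2 promoter: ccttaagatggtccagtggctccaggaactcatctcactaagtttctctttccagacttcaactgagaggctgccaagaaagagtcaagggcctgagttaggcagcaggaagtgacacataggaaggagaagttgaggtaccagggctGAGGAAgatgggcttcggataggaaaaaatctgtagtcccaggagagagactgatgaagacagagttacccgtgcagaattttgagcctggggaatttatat
Rgs8 promoter: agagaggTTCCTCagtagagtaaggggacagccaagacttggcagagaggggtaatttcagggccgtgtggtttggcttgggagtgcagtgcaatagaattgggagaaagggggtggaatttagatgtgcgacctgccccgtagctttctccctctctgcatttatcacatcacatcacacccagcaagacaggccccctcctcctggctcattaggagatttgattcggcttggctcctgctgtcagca

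The motif was searched on both strands, and it lies at -102 from the start in the Bco2 window and at -243 in the Rgs8 window. Of 9 listed windows of 5 members (Rgs8, Ceacam1, Bco2, Kcnj2 and Six4), 5 windows in 4 genes held it; Six4 windows held none. Over all 32851 promoter windows of the same length, 23.3% held it. A match is only a run of letters and no evidence of binding.

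After 4-OHT, 5 of the 7 genes were higher and 2 were lower in shRNA cells, by between 2.15-fold and 2.83-fold. All 7 had shRNA arrays wholly apart from the control arrays at that time, as did 38.6% of all tested genes. This share is given for scale only, since this difference chose the genes. Ordered by size, the members ranked from 21 (Gjd3) to 121 (Six4) of 15057, among 178 genes that differed by at least 2-fold; the median size over all genes was 0.20 on the log2 scale. Before 4-OHT all 7 differences had the same sign as after it, 6 of 7 were smaller than after it, and 3 (Sema6a, Rgs8 and Six4) were less than 0.5 times as large; Bco2 is counted here although it was not well above background on any array before 4-OHT. The arrays were apart in 5 of 7 members before 4-OHT, against 32.5% of all genes. A difference mainly after 4-OHT does not describe Gjd3, and which of the other 6 it describes changed with the processing. With normexp background correction, which adds an offset of 50 to each signal, Sema6a differed by 0.32 after 4-OHT and 0.30 before it, Rgs8 by 0.30 and 0.20, and Six4 by 0.33 and 0.18. In the same setting Kcnj2 differed by -1.06 after 4-OHT and -0.59 before it, and Ceacam1 by 0.96 and 0.59.

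**Figure D1:**
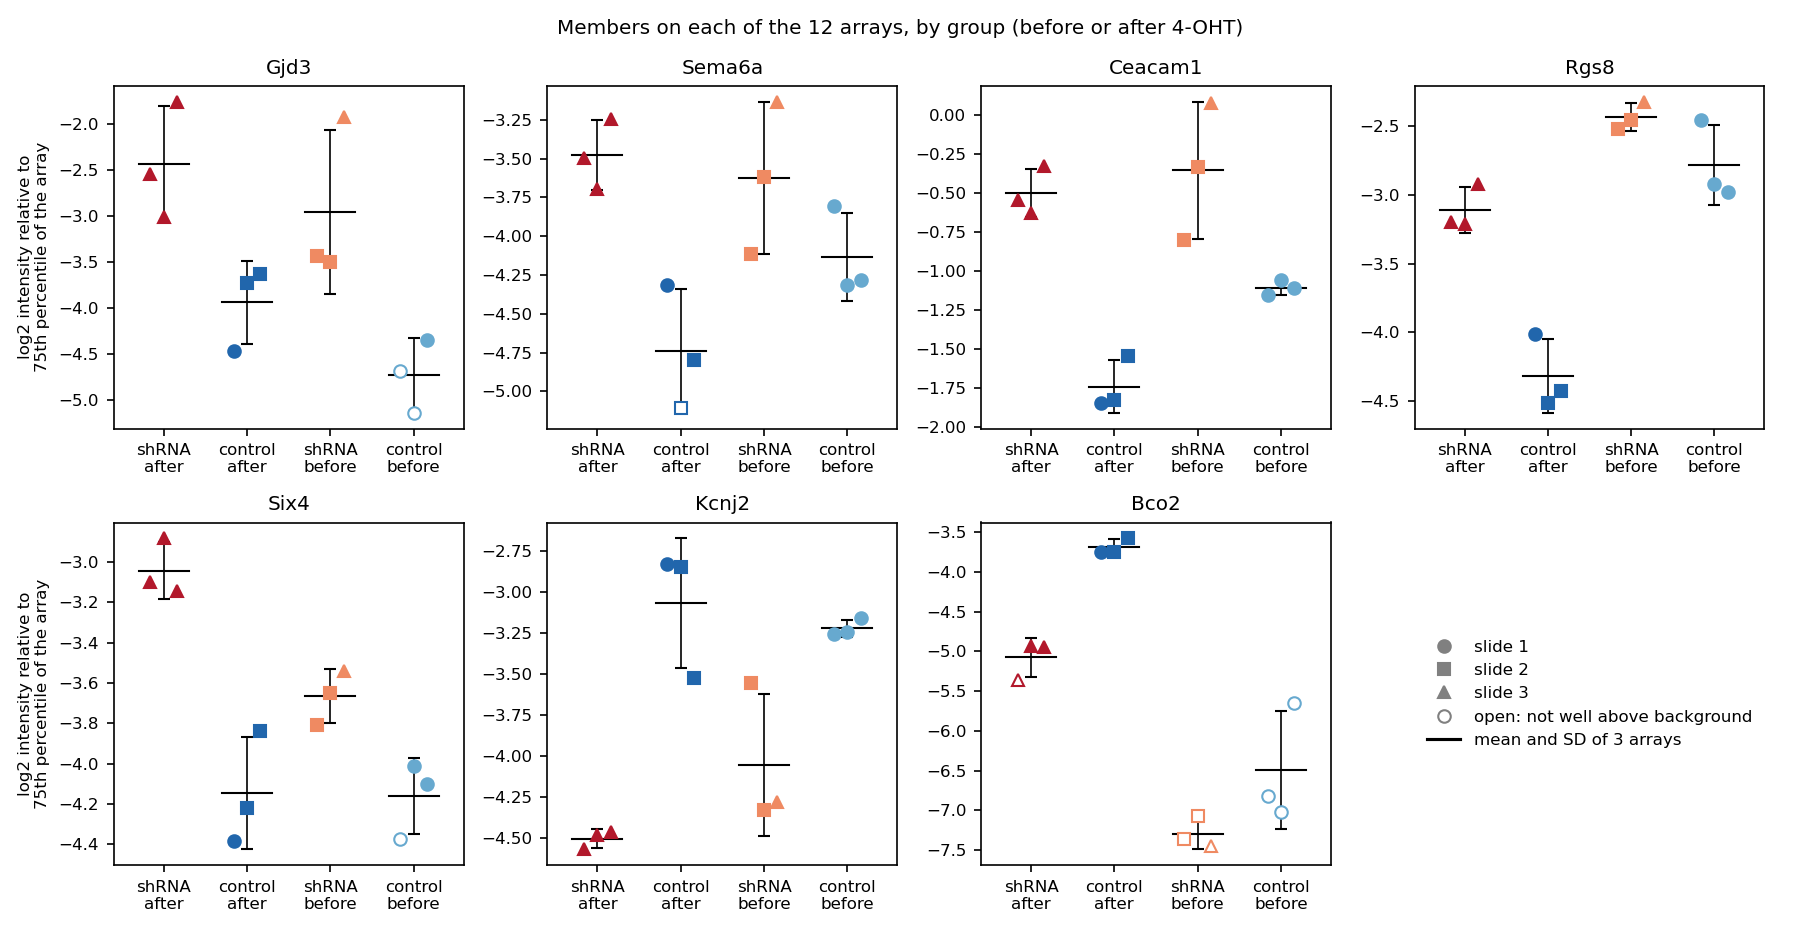
Level of each member on each of the 12 arrays (log2 intensity relative to the array's 75th percentile), with the mean and SD of each group of 3 arrays; symbols give the slide and open symbols are spots not well above background. In all 7 panels the shRNA arrays after 4-OHT lie wholly above (5 genes) or wholly below (2 genes) the control arrays after 4-OHT.

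Among the surface proteins, Gjd3 had levels of -2.54, -3.01 and -1.76 on shRNA arrays A, B and C after 4-OHT, against -4.46, -3.72 and -3.63 on the control arrays. Before 4-OHT it had -3.44, -3.50 and -1.93 on the shRNA arrays, against -4.68, -5.14 and -4.34 on the control arrays. Every shRNA array was above every control array at both times, and the difference was larger before 4-OHT (1.76, 3.40-fold) than after it (1.50, 2.83-fold). Control arrays A and B before 4-OHT were not well above background.

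The Gjd3 levels also differed between arrays of the same group that lay on different slides. Within shRNA cells before 4-OHT, array C on slide 3 stood 1.54 above the mean of arrays A and B on slide 2; only 61 of 14995 genes had a gap of this size or larger. Within control cells after 4-OHT, array A on slide 1 stood 0.78 below the mean of B and C on slide 2. With slide as a fixed block the vector difference after 4-OHT was -0.30 (SE 0.58), opposite in sign to the unblocked value. Over the 214 tested probes with a GC content of 60% or more, the median difference between array C and the other shRNA arrays before 4-OHT was 0.087. In the classes of lower GC content it was 0.012 to 0.056, and the part of probe composition was not tested. Array C also had a lower Hnrnpa0 level (1.00) than arrays A and B (1.93 and 1.57). For this array, slide cannot be told apart from culture or knockdown depth. The part of slide in the Gjd3 difference was not tested.

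Sema6a, a membrane-bound semaphorin, had levels of -3.49, -3.69 and -3.24 on the shRNA arrays after 4-OHT, against -4.32, -5.11 and -4.80 on the control arrays. Before 4-OHT it had -4.12, -3.62 and -3.13 on the shRNA arrays, against -3.80, -4.31 and -4.28 on the control arrays. The groups were apart after 4-OHT (1.26, 2.40-fold) and overlapped before it (0.51, 1.42-fold). The wider gap after 4-OHT came with lower control levels (-4.74 ± 0.40 after, -4.13 ± 0.29 before; SD, n = 3), while shRNA levels were -3.48 ± 0.22 after and -3.62 ± 0.49 before. A fixed slide block gave 0.74 (SE 0.37) after 4-OHT and 0.90 before it, so that the order of these sizes turned. Levels also differed between slides within a group. In shRNA cells before 4-OHT, array C stood 0.74 above A and B, and 3.36% of genes had a gap as large. In control cells after 4-OHT, array A stood 0.64 above B and C, and 7.50% of genes had a gap as large. The other Sema6a probes were above background on no array, and 1 of 3 control arrays after 4-OHT (B) was not well above background on the tested probe.

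Ceacam1, the adhesion receptor, had levels of -0.55, -0.63 and -0.33 on the shRNA arrays after 4-OHT, against -1.85, -1.83 and -1.55 on the control arrays. Before 4-OHT it had -0.80, -0.34 and 0.075 on the shRNA arrays, against -1.16, -1.06 and -1.11 on the control arrays. The groups did not overlap at either time, and the difference was 1.24 (2.37-fold) after 4-OHT and 0.75 (1.69-fold) before it. All 3 Ceacam1 probes were above background on all 12 arrays, and the other probes, printed above, gave 1.03 (A_51_P183446, 2 listed transcripts) and 0.97 (A_52_P159232, 4 listed transcripts) after 4-OHT. Before 4-OHT these probes gave 0.88 and 0.50. The paralogue Ceacam2 differed by 0.021 (SE 0.089, adjusted p = 0.887 by limma) between shRNA and control cells after 4-OHT. With slide as a fixed block the Ceacam1 difference after 4-OHT was 0.54 (SE 0.26), under 0.5 times the unblocked value. Array C of the shRNA cells before 4-OHT stood 0.65 above A and B, and here too slide cannot be told apart from culture or knockdown depth.

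Rgs8, an RGS protein best known from the brain, had levels of -3.20, -3.21 and -2.92 on the shRNA arrays after 4-OHT, against -4.01, -4.51 and -4.43 on the control arrays. Before 4-OHT it had -2.52, -2.45 and -2.32 on the shRNA arrays, against -2.45, -2.92 and -2.98 on the control arrays. The groups were apart after 4-OHT (1.21, 2.31-fold), and before it shRNA array A lay below control array A (0.35, 1.28-fold). Its difference after 4-OHT was 1.20 (SE 0.27) with slide as a fixed block, against 1.21 without it, and before 4-OHT it was 0.76 with the block. The second Rgs8 probe gave 0.92 after 4-OHT and was above background on none of the 3 control arrays and 1 of 3 shRNA arrays.

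**Figure D2:**
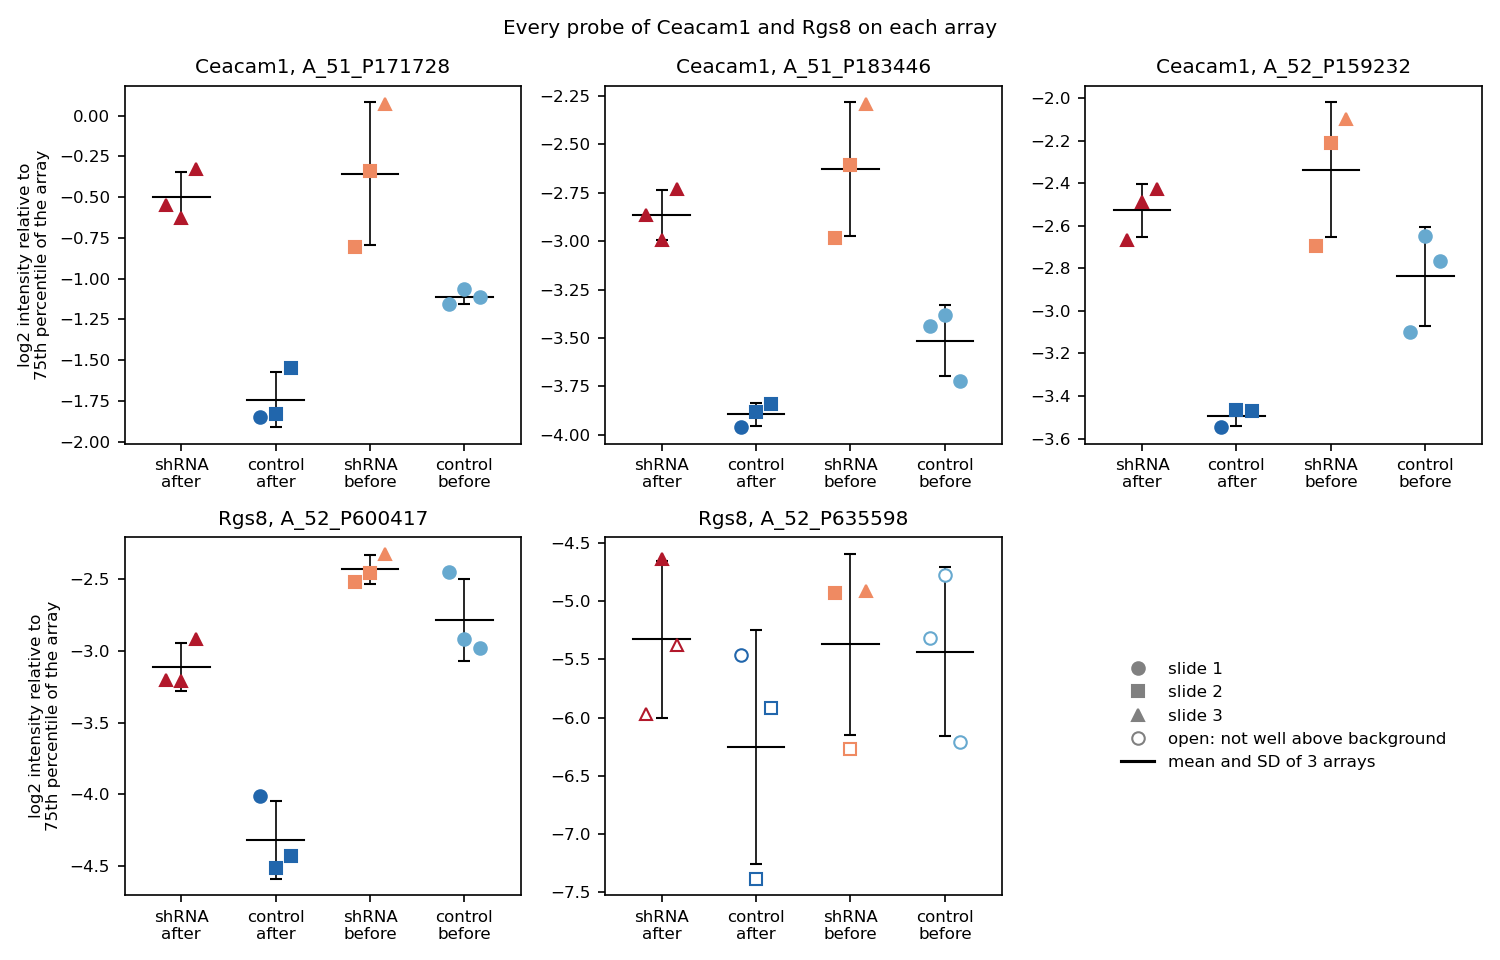
Level of each of the 3 Ceacam1 and 2 Rgs8 probes on each array (log2 intensity relative to the array's 75th percentile), with group mean and SD (n = 3), slides as symbols and open symbols for spots not well above background. All 3 Ceacam1 probes separate shRNA from control arrays after 4-OHT, and the dimmer Rgs8 probe does not.

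Six4 had levels of -3.10, -2.88 and -3.14 on the shRNA arrays after 4-OHT, against -4.38, -4.22 and -3.84 on the control arrays. Before 4-OHT it had -3.81, -3.65 and -3.54 on the shRNA arrays, against -4.37, -4.01 and -4.10 on the control arrays. No shRNA array overlapped a control array at either time, and the difference was 1.10 (2.15-fold) after 4-OHT and 0.50 (1.41-fold) before it. Control levels were nearly the same at both times (-4.15 ± 0.28 after and -4.16 ± 0.19 before; SD, n = 3), and the wider gap came with higher shRNA levels after 4-OHT (-3.04 ± 0.14) than before it (-3.67 ± 0.13). With a fixed slide block these values were 0.80 (SE 0.25) after 4-OHT and 0.081 before it.

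Kcnj2, lower in shRNA cells, had levels of -4.57, -4.48 and -4.47 on the shRNA arrays after 4-OHT, against -2.83, -2.85 and -3.53 on the control arrays. Before 4-OHT it had -3.56, -4.33 and -4.28 on the shRNA arrays, against -3.25, -3.25 and -3.16 on the control arrays. The groups were apart at both times, by -1.44 (2.71-fold lower) after 4-OHT and -0.83 (1.78-fold lower) before it. A fixed slide block gave -0.98 (SE 0.41) after 4-OHT and -0.37 before it.

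Bco2 had levels of -5.36, -4.93 and -4.94 on the shRNA arrays after 4-OHT, against -3.74, -3.75 and -3.57 on the control arrays. Before 4-OHT none of the 6 arrays was well above background, with -7.36, -7.08 and -7.45 on the shRNA arrays against -6.82, -7.03 and -5.65 on the control arrays. After 4-OHT the shRNA arrays lay below all control arrays (-1.39, 2.62-fold lower), with 2 of 3 shRNA arrays and 3 of 3 control arrays above background. No fold between vectors can be given before 4-OHT. With a fixed slide block that value was -1.18 (SE 0.62).

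**Figure D3:**
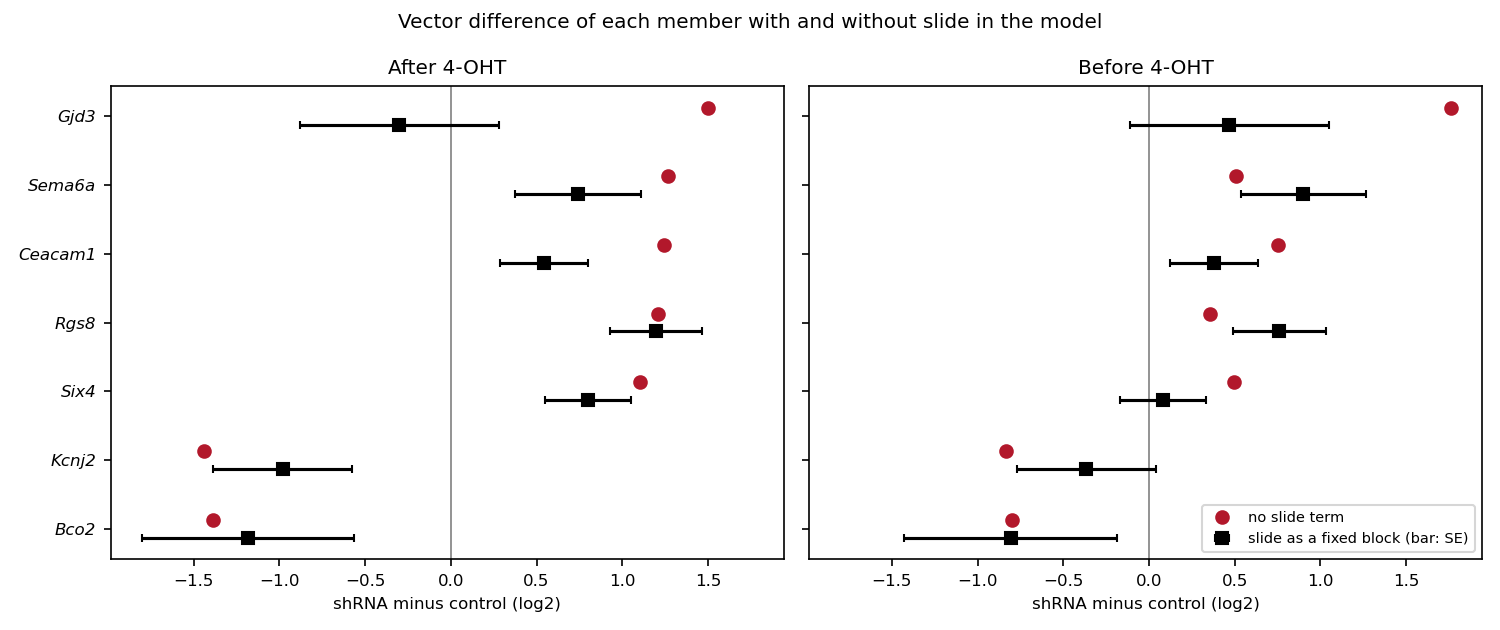
Vector difference of each member (shRNA minus control, log2) after and before 4-OHT, without a slide term (circles) and with slide as a fixed block (squares, bars are SE). With the block, Gjd3 after 4-OHT lies at -0.30 and Rgs8 stays at 1.20, next to 1.21 without it.

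The slide block left between 43.7% (Ceacam1) and 99.1% (Rgs8) of the difference after 4-OHT in the 6 members other than Gjd3. No slide held both vectors after 4-OHT, so the blocked values join 2 steps. On slide 3, shRNA arrays after 4-OHT are set against shRNA array C before it. On slide 2, shRNA arrays A and B before 4-OHT are set against control arrays B and C after it. Each blocked value thus rests in part on 1 array and on a comparison across treatments. The percentages do not measure the share free of slide effects. With normexp the Gjd3 difference was 0.82 after 4-OHT and 0.94 before it. Of the 6 progenitor markers, Ptprc (-0.78, adjusted p = 0.0120 by limma) and Kit (0.49, adjusted p = 0.00739) also differed between the vectors after 4-OHT. Of the 4 macrophage markers, Cd14 did (-0.40, adjusted p = 0.0427 by limma). These calls come from the fit without slide. For this vector difference, 1 of all tested genes was called with slide as a fixed block and 0 with slide as a random block. Adgre1 differed by -0.66 on its brightest probe, which had values on only 1 shRNA and 2 control arrays after 4-OHT, and by -0.38 (adjusted p = 0.0548) on its tested probe. The relative intensities of the 3 macrophage markers with a value on every array were summed. After 4-OHT the sum ran from 25.5 to 33.2 on shRNA arrays and from 33.4 to 41.1 on control arrays. Most of it was the signal of Cd14 (mean level 4.80 in shRNA and 5.19 in control cells), so it largely repeats the Cd14 difference. Itgam differed by -0.29 (adjusted p = 0.170 by limma) and Csf1r, higher in shRNA cells, by 0.13 (adjusted p = 0.656). The part of these markers in the members' differences was not tested.

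The average response to 4-OHT over both vectors, after minus before, does not use the vector difference and was tested with limma across all 15057 genes, 3 arrays in each of the 4 groups. Of the 6 members with arrays above background in every group, 1 rose (Six4), 2 fell (Ceacam1 and Rgs8) and 3 did not pass (Gjd3, Sema6a and Kcnj2). Among all tested genes 51.8% passed, 22.0% higher and 29.7% lower after 4-OHT. The members' count stands near that background. Bco2 is left out of this count, since it entered the table only through its arrays after 4-OHT.

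Rgs8 had the largest of the 6 responses. It fell by 1.11 on the log2 scale (SE 0.12, adjusted p = 1.71e-05), with -0.68 in shRNA cells and -1.53 in control cells, and within a slide it was lower after 4-OHT in both vectors (-0.79 in shRNA cells on slide 3, -1.23 in control cells on slide 1). Each within-slide value rests on 1 array in one arm: shRNA array C before 4-OHT on slide 3 and control array A after it on slide 1. The call held in all 20 alternative settings on this probe. The dimmer Rgs8 probe gave -0.39 with adjusted p = 0.486.

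Ceacam1 fell by 0.39 (SE 0.13, adjusted p = 0.0293), with -0.15 in shRNA cells and -0.63 in control cells. Within a slide the changes were -0.58 in shRNA cells and -0.74 in control cells, both lower after 4-OHT. On the other probes the response was -0.42 (A_52_P159232, adjusted p = 0.0207) and -0.31 (A_51_P183446, adjusted p = 0.0667). The call held in 12 of 20 settings, with adjusted p from 0.00192 to 0.0671. It was lost without shRNA array A or B or control array A or B after 4-OHT (adjusted p between 0.0582 and 0.0671), and without shRNA array B or control array B or C before it (between 0.0526 and 0.0557).

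Six4 rose by 0.32 (SE 0.10, adjusted p = 0.0258), with 0.62 in shRNA cells and 0.016 in control cells. Within a slide the changes had opposite signs, 0.50 in shRNA cells on slide 3 and -0.22 in control cells on slide 1. The call held in 13 of 20 settings and was lost with slide as a fixed block (0.14, adjusted p = 0.440). It was also lost without shRNA array B after 4-OHT, shRNA array A before it or control array A before it (adjusted p between 0.0607 and 0.0641).

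Gjd3 gave 0.65 (SE 0.32, adjusted p = 0.114), Sema6a -0.23 (SE 0.19, adjusted p = 0.330) and Kcnj2 -0.15 (SE 0.15, adjusted p = 0.443) in the same limma fit. The Gjd3 value passed without shRNA array C before 4-OHT (0.91, adjusted p = 0.0140). Sema6a and Kcnj2 gave responses of opposite sign in the vectors, 0.15 in shRNA and -0.61 in control cells for Sema6a and -0.45 in shRNA and 0.15 in control cells for Kcnj2. Within a slide the Sema6a signs were alike (-0.34 in shRNA cells and -0.18 in control cells), and the Kcnj2 signs were opposite (-0.23 in shRNA cells and 0.39 in control cells).

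Bco2 was above background on no array before 4-OHT and on 5 of 6 after it, and all 6 arrays after 4-OHT stood above all 6 before it. In control cells it was at least 1.96-fold higher after 4-OHT than before, and over both vectors at least 1.39-fold. These bounds replace a level not well above background by the lowest signal on that array that was well above background, or the probe's own signal if higher. In shRNA cells no such fold can be given. The measured means were -5.08 ± 0.24 after and -7.30 ± 0.20 before in shRNA cells, and -3.69 ± 0.10 after and -6.50 ± 0.74 before in control cells (SD, n = 3).

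**Figure D4:**
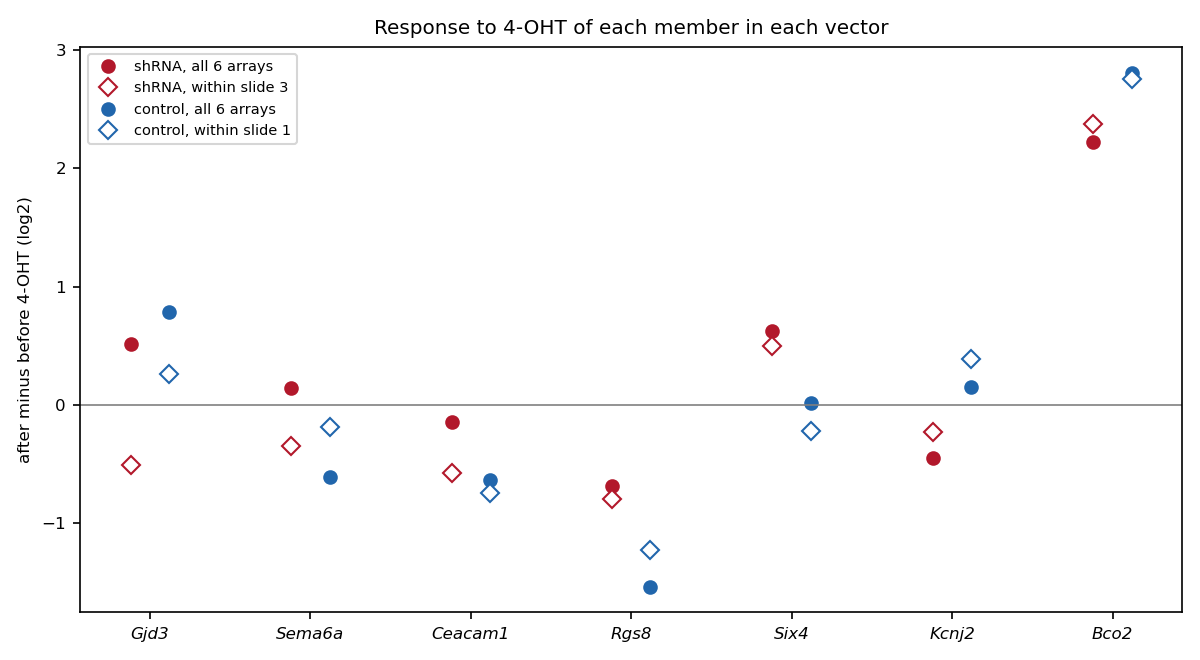
Response to 4-OHT (after minus before, log2) of each member in each vector, from all 6 arrays of the vector (circles) and from the single slide that holds both times of that vector (diamonds, 4 arrays). Rgs8 is below 0 in all 4 values, Bco2 is plotted against arrays that were not well above background before 4-OHT, and Gjd3 in shRNA cells is 0.52 over all arrays and -0.51 within slide 3.

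The members' families were described from 7 lists of 135 genes without the members, of which 129 are on the array and 54 were bright enough to test. The vector difference after 4-OHT passed in 9 of the 54, with 5 higher and 4 lower in shRNA cells, against 16.7% of all genes; the median difference was 0.012 over the lists and -0.038 over all genes. The average 4-OHT response passed in 34, with 15 higher and 19 lower after 4-OHT, against 51.8% of all genes; the median was -0.12 over the lists and -0.071 over all genes. None of the 9 vector calls was left with slide as a fixed block, in which 842 of 14637 genes had an unadjusted p under 0.05 by limma and 1 gene was called.

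Of 5 connexin and pannexin genes, 1 differed between vectors after 4-OHT: Panx1, which forms channels to the outside of the cell, was lower in shRNA cells (-0.28, adjusted p = 0.0414). Over both vectors 3 fell after 4-OHT, among them Gja5 (-0.50) and Panx1 (-0.47). Of 14 semaphorin, plexin and neuropilin genes, 2 were higher in shRNA cells after 4-OHT. They were Sema6c, of the same class as Sema6a (0.64, adjusted p = 0.0167 by limma), and the co-receptor Nrp1 (0.49, adjusted p = 0.0141). Before 4-OHT both were higher in shRNA cells too, with mean levels of -0.75 against -1.44 for Sema6c and -2.19 against -2.53 for Nrp1. The secreted ligand Sema3a was at least 5.02-fold higher after 4-OHT than before, Sema4b was higher (0.67) and Sema6b lower (-0.80).

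Of 6 genes of the Ceacam family and its phosphatases, Ceacam10 was higher in shRNA cells after 4-OHT (0.40, adjusted p = 0.0307 by limma). Its mean level was also higher in shRNA than in control cells before 4-OHT (0.036 against -0.31). Ptpn6, the phosphatase that the tail of Ceacam1 can recruit, rose 3.02-fold after 4-OHT over both vectors, Ceacam18 rose at least 5.72-fold, and Ceacam2 fell (-0.78). Of 8 RGS genes, Rgs10 (-0.40, adjusted p = 0.0458) and Rgs14 (-0.27, adjusted p = 0.0237) were lower in shRNA cells after 4-OHT, opposite in sign to Rgs8. Over both vectors 4 of the 8 RGS genes rose after 4-OHT, 2 fell as Rgs8 did and 2 did not pass. The 3 largest of these responses were rises on the log2 scale, opposite in sign to Rgs8: Rgs18 (2.43), Rgs10 (1.95) and Rgs14 (1.66).

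All 4 tested relatives and partners of Six4 passed in the average response, among them Six5 (-1.03), Dach1 (-0.72) and the partner Eya3 (0.34). Of 6 inward rectifier genes, Kcnj15 was higher in shRNA cells after 4-OHT (0.32, adjusted p = 0.0399 by limma), opposite in sign to Kcnj2. After 4-OHT, Kcnj9 rose about 3.05-fold and Kcnj8 fell (-1.66) over both vectors. Of 11 carotenoid and retinoid genes, Scarb1, a receptor that takes up carotenoids with lipoproteins, was higher in shRNA cells (0.43, adjusted p = 0.0157), against the lower Bco2. Cd36, a lipid scavenger receptor, rose at least 3.32-fold after 4-OHT, the retinoic acid receptor Rara rose 3.91-fold, and the retinol carrier Rbp4 fell about 2.79-fold. The Kcnj9 and Rbp4 folds replace dim levels only in groups with no array above background, so they are not strict bounds.

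Genes with the profile most like each member were ranked over the 12 arrays by the root mean square difference of centred log2 levels, among 11065 named genes with a value on every array. The nearest to Gjd3 were Fthl17e (0.315), Lalba (0.400) and Zfp652 (0.472), and all 3, like Gjd3, differed more between vectors before 4-OHT (1.60, 1.51 and 1.30) than after it (1.49, 0.94 and 1.02). Their probes had GC contents of 55%, 45% and 38.3%, all below that of Gjd3, as were nearly all tested probes. The nearest to Sema6a were Anxa13, Dusp23 and Pih1d2 (0.187 to 0.245), and those to Ceacam1 were Pa2g4, Mcph1 and Minar2 (0.240 to 0.248).

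Those nearest to Rgs8 were Dnajc6, Sgms2 and Lbp (0.245 to 0.260), with 4-OHT responses in shRNA cells of -1.13, -0.94 and -1.15 next to -0.68 for Rgs8. Six4 was nearest to Vamp3, Arhgap39 and Prkacb (0.189 to 0.214). Kcnj2 was nearest to Ppp3r1, Rap2b and Scoc (0.226 to 0.267), which were lower in shRNA cells by 1.03 to 1.21 on the log2 scale after 4-OHT. Bco2 was nearest to Ifi203, Ahnak and Adgre4 (0.438 to 0.472), which were lower in shRNA than in control cells by 0.69 to 0.97 on the log2 scale after 4-OHT. These are likenesses of profile over arrays that share slides, chosen by the same values.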

How the data were processed

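RNA of 12 PUER cultures was labelled with Cy3 and hybridised to 12 one-colour mouse arrays. Per the file headers, the authors read the scans with Agilent Feature Extraction 9.5.3.1 (9.5 per the submitters' processing notes); the deposited values are linear intensity per spot after background subtraction, without scaling between arrays. The deposited value table holds the same intensity within 0.497% on each array.

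Control spots and spots marked as outliers were dropped, replicate spots were averaged per probe, and log2 was taken relative to the array's 75th percentile (1196 to 2583). On each array 50.3% to 55.7% of spots were well above background. Each gene was tested on its brightest probe, if well above background on 3 or more arrays and with a value on 2 or more in every group. Of 41174 probes, 22951 were named by transcript, 6659 by a current symbol, 3109 by an older symbol and 8455 kept the file's name.

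limma 3.58.1 in R 4.3.3 was run on the 12 arrays together, with a mean per group (lmFit, eBayes, Benjamini-Hochberg, threshold 0.05) and tested on simulated data. The simulated data held independent noise per array and no slide effect, so they cannot show how slide bears on the calls. Python 3.11.15 and matplotlib 3.10.9 drew the figures. Alternatives changed the scaling, background correction, dim-probe filter, slide, replicate letter, source table, probe and arrays used. The members, gene lists and tests were chosen with earlier results of these data known. Family genes named are the largest past the threshold, up to 3 per list and contrast, except a few items that are not reported here; like profiles are the nearest 3 per member. The letters A to C were not taken to pair arrays in the main fit. After and before 4-OHT, same-letter deviations correlated between -0.027 and 0.258 over 14367 genes, and different-letter deviations between -0.321 and 0.169. After 4-OHT, shRNA array B correlated best with array A before it (0.127), and every other array with its own letter. Cultures may share a clone across times, so p-values measure the spread between these arrays, whose number limits the precision.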

Additional observations from a re-analysis of the deposited data

How the results depend on the processing

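The count of genes passing the vector difference after 4-OHT was 2513, and it was 358 without the filter on dim probes, 1 with slide as a fixed block, 0 with slide as a random block (limma; 2623 at an unadjusted p under 0.05) and 865 with the percentile taken over unmarked spots, an alternative chosen after seeing the data. Leaving out 1 array gave 308 to 3016, with the lowest without control array B after 4-OHT; it was also over 1.5 times lower without shRNA array A (1354), B (604) or C (500) or control array A (1127) after 4-OHT. The family count of 9 was 5 with quantile normalization, 1 without the filter, 0 with either slide block, 3 over unmarked spots and 0 to 10 without 1 array, with 3 without shRNA array B, 2 without shRNA array C, 5 without control array A and 0 without control array B after 4-OHT. The average 4-OHT response passed in 7792 genes and in 6045 to 8657 under the other settings, and in 31 to 42 family genes. With the replicate letter as a replicate block the counts were 7934 and 2766 (34 and 11 family genes). Gjd3 then passed in the average response (0.65, adjusted p = 0.0250 by limma). After 4-OHT, every array but shRNA array B correlated best with its own letter. The Gjd3 vector difference after 4-OHT was -0.30 with slide as a fixed block, and that of Sema6a was -0.10 and -0.55 on its other probes, which were below background on every array; the cause was not tested. The Six4 average response fell short with normexp (0.23, adjusted p = 0.168), without the filter (0.0501) and with slide as a random block (0.0722), and that of Ceacam1 without the filter (0.0537). Levels near background limit Bco2, Sema6a, Gjd3 and Six4, each with some arrays not well above background on the tested probe. The tested Rgs8 probe was well above background on all 12 arrays, but was dim in control cells after 4-OHT (mean -4.32). With normexp its vector difference after 4-OHT fell from 1.21 to 0.30.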
